A study of Mus musculus with 4 samples.

Results

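The enzymes, transporters and kinases of glycolysis, lactate handling, pyruvate entry and the pentose phosphate pathway were compared between CD44v8-10-positive and CD44v8-10-negative 4T1 cells. The members were 35 genes listed by symbol, each read from the probe set with the highest mean over the arrays among those that the platform annotation pairs with that symbol alone. Of the 35 genes, 32 had such a probe set and 28 were tested. For Gpi1, Eno1 and G6pdx no such probe set was paired here, and they were not analysed. Gapdh had only array control probe sets, which were kept out of the test, and Eno2, Pdk2 and Slc16a3 lay below the filter on dim probe sets.

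The 4T1 line is a mouse mammary carcinoma line. The study set 2 samples of 4T1 cells that carry CD44v8-10, a splice form of the surface receptor CD44 with variant exons, against 2 samples that do not. Both groups were grown in serum-containing RPMI medium in normoxia and were picked by hand under a microscope, per the labels. Total RNA was hybridised to 1 Affymetrix array per sample, 4 arrays in all, and nothing in the labels says that the 2 samples of a group came from separate cultures, so p-values measure the spread between samples that may differ only technically. The number of arrays limits the precision.

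Glycolysis splits glucose into pyruvate and gains ATP and NADH on the way. Lactate dehydrogenase turns pyruvate into lactate, which leaves the cell through monocarboxylate transporters, while the pyruvate dehydrogenase complex sends pyruvate into mitochondria as acetyl-CoA and is switched off by its kinases. The pentose phosphate pathway branches off at glucose phosphate; its oxidative arm yields NADPH, which keeps glutathione reduced, and its non-oxidative arm exchanges sugar phosphates with glycolysis. Cultured carcinoma cells commonly turn most of their glucose into lactate even with oxygen present, and CD44 has been linked in other work to glucose metabolism through the pyruvate kinase Pkm.

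The deposited arrays differed in brightness, so they were quantile normalized: trimmed mean intensities were 237 and 220 for positive cells, against 196 and 345 for negative cells. Of 11956 genes tested, 9 were called higher in positive cells (0.0753%) and 0 lower (limma, adjusted p under 0.05), and 532 genes (4.45%) had an unadjusted p under 0.05, 2.68% of all genes higher and 1.76% lower. Esrp1, the splicing regulator with the lowest p, had a log2 fold change of 4.48. Positive replicate 2 stood apart: its correlations with the other 3 arrays over all genes tested ran from 0.968 to 0.972, against 0.980 to 0.985 among the others. Its 3' to 5' ratio of the actin control was 1.35, against 1.20 for positive replicate 1, and 1.17 and 1.25 for the negative arrays. The same ratio of the Gapdh control was 0.782 and 0.783 in positive and 0.778 and 0.839 in negative arrays, where negative replicate 2 was the one apart. All 6 mammary epithelial markers were above the filter, and all 6 had higher mean log2 signals in positive cells, with a summed signal of 27670 and 29375 in positive against 21780 and 26641 in negative arrays. Cldn7, a tight junction claudin, had 1152 and 904 in positive against 203 and 184 in negative arrays. Of 7 macrophage markers 5 were above the filter and 6 had higher mean log2 signals in positive cells. Their summed signal was 497 and 658 in positive against 437 and 406 in negative arrays. Means were also higher in positive cells for 2 of 5 fibroblast and 0 of 3 skeletal muscle markers. The same held for 4 of 4 endothelial, 2 of 2 erythroid and 1 of 2 lymphocyte markers with a probe set, with 0 of these above the filter. The part of these differences in the values that follow was not tested.

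No member of the pathway was called. Of the 28 tested, 0 passed an adjusted p of 0.05 (limma, Benjamini-Hochberg over all genes; the lowest was 0.985), beside 0.0753% of all genes. At an unadjusted p under 0.05 there was 1, the liver-type phosphofructokinase Pfkl, on the higher side, beside 2.68% of all genes higher and 1.76% lower. Log2 fold changes ran from -0.25 for Pdk1 to 0.52 for Pfkl, with 15 above 0 and 13 below; among all genes 54.3% lay above 0. The median was 0.019 and the median of all genes 0.028. The size of the difference had a median of 0.15 over the members and 0.17 over all genes, with a median SE of 0.19 and 0.24.

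The 95% intervals cover the tested probe set of each gene and the spread between samples that may differ only technically. In 27 of the 28 members the 95% interval lay within a log2 value of 1 in either direction, that is, less than 2-fold. Pfkl was the exception. The same held in 76.7% of all genes, but the median SE was 0.19 over the members and 0.24 over all genes. The 2 shares therefore differ in part through the width of the intervals and do not compare the differences alone. The intervals are each gene's own and are not adjusted for the number of genes. If samples differ only technically, the intervals do not bound a difference between the cell populations. Other probe sets of a gene can lie outside them, as in Ldhb (-1.12, on a dim probe set), Pgk1 (-0.64, on a less specific probe set) and Pgd (0.44). Groups did not overlap in 5 members, 4 higher (Slc2a1, Slc16a1, Pfkl and Pdk3) and 1 lower (Taldo1), which is 17.9% of the members, beside 32.3% of all genes (18.5% higher and 13.8% lower). The difference between the groups exceeded the gap between replicates of both groups in 1 member, Pdk3, and in 19.1% of all genes. With 2 arrays against 2, an exact permutation test of 1 gene cannot go below a two-sided p of 0.333.

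**Figure D1:**
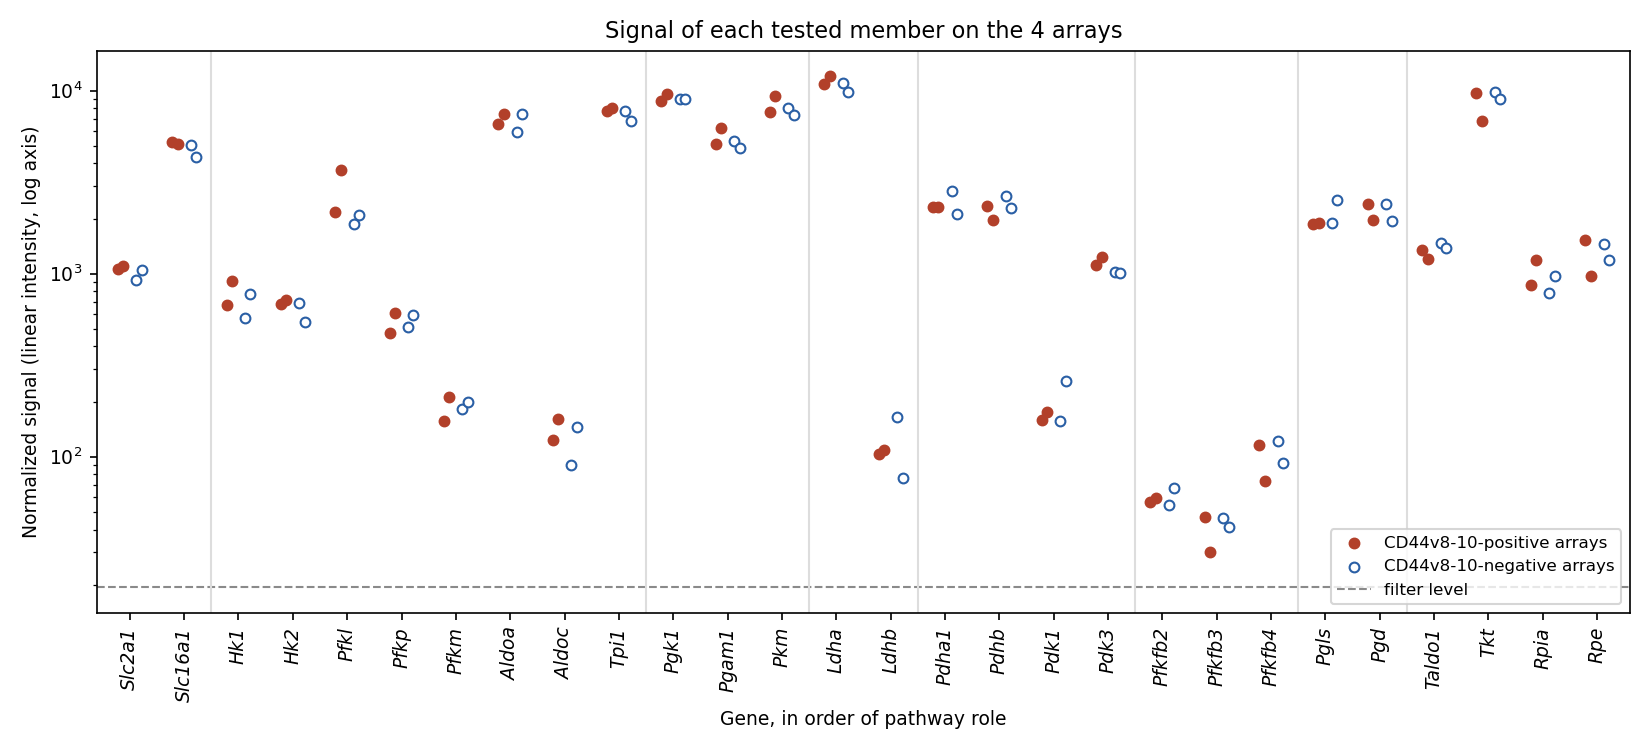
Normalized signal (linear intensity on a log axis) of the 28 tested members on the 2 positive arrays (filled) and the 2 negative arrays (open), in order of pathway role, with the filter level of 19.4 dashed. Heights of different genes come from different probe sets and cannot be compared. Within a gene the 2 groups overlapped in 23 of 28. They did not overlap in 17.9% of the members, beside 32.3% of all genes.

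**Figure D2:**
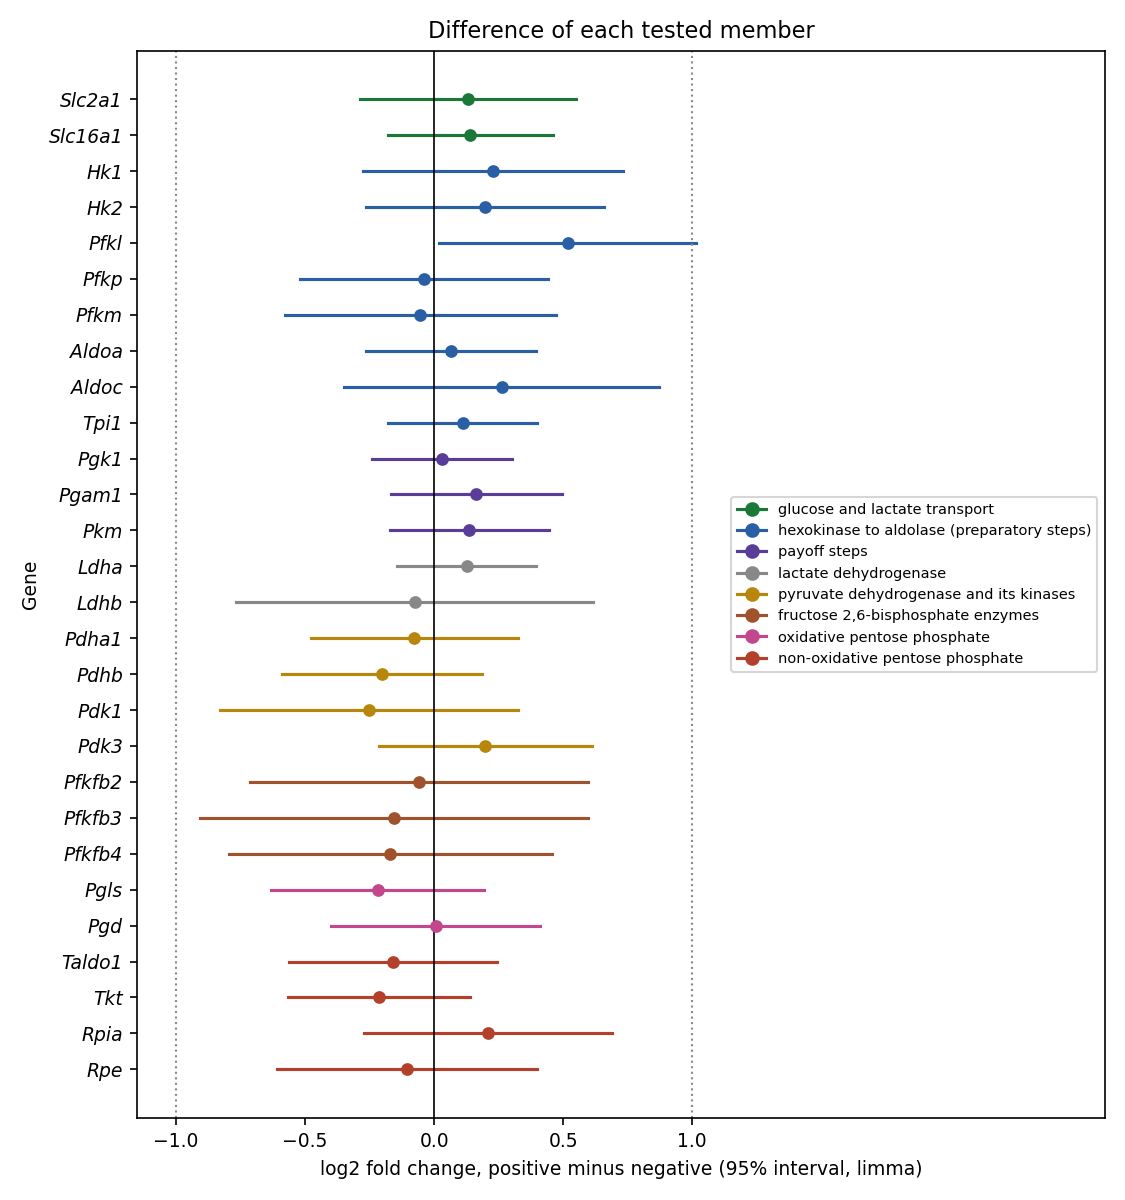
Log2 fold change of positive minus negative cells for the 28 tested members, with 95% intervals from limma and colours by pathway role. The dotted lines mark 1 in either direction, and the interval of Pfkl, 0.021 to 1.02, is the one that crosses a dotted line.

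**Figure D3:**
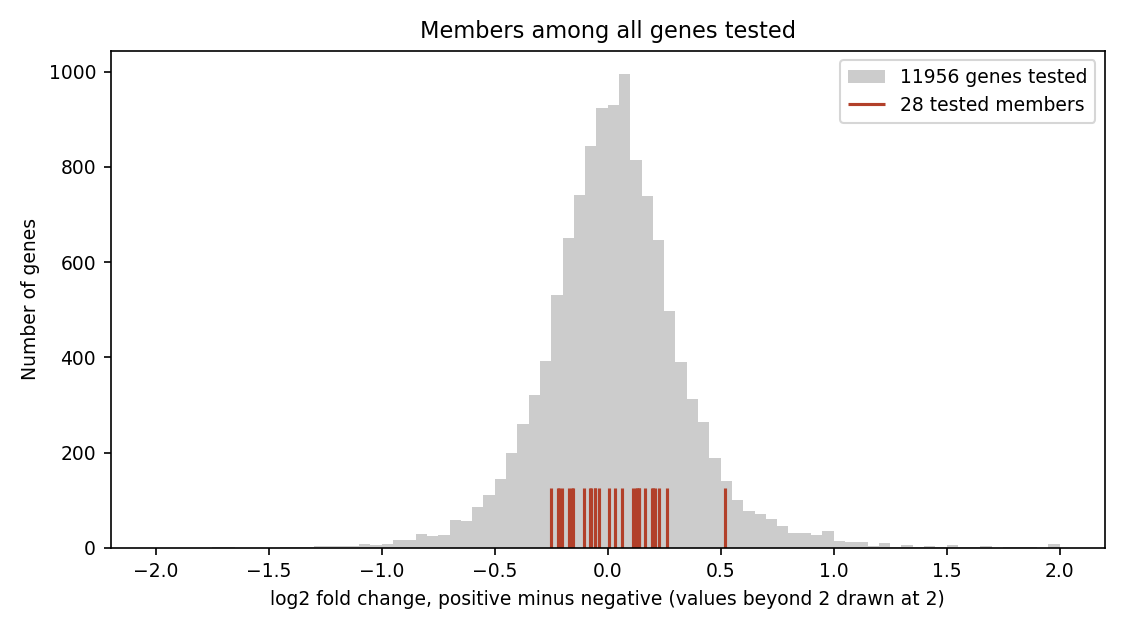
Histogram of the log2 fold changes of the 11956 genes tested, with a red mark for each of the 28 members. The members sat between -0.25 and 0.52, and the lower and upper quartiles of all genes were -0.15 and 0.20.

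The promoters of 3 members are given to show the sequence beside the values, for Pfkl as the member with the largest difference, for Ldha as a textbook target of the hypoxia-inducible factor HIF-1, and for Tkt as the pentose phosphate enzyme with the lowest unadjusted p. Each shows the 250 bases before an annotated start, 5′ to 3′ on the strand of the gene, from RefSeq in build GRCm38.p6, with matches to ACGTG or GCGTG, the core of the HIF-1 element, in capitals on either strand.
Pfkl, chr10:78009808-78010057, minus strand: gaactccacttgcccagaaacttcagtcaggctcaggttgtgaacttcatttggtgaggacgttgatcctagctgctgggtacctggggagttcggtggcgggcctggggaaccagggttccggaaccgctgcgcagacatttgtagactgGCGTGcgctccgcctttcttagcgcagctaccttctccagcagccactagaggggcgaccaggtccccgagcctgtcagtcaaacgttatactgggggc
Ldha, chr7:46845554-46845803, plus strand: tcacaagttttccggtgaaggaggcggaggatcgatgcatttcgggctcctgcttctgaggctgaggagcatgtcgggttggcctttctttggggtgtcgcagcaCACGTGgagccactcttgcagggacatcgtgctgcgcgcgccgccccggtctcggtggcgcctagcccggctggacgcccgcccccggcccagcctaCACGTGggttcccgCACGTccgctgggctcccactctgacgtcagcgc
Tkt, chr14:30548881-30549130, plus strand: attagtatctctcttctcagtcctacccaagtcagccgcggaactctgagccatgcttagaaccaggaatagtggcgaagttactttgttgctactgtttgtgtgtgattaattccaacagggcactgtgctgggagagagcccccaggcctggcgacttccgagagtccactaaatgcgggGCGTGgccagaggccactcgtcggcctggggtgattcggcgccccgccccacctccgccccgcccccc

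Pfkl and Tkt each held 1 match to GCGTG, and Ldha held 5 matches to ACGTG. In Ldha 2 of the sites read CACGTG, the E-box that Myc and Max bind, which holds ACGTG on both strands and so counts 2 matches each. The window of Ldha lies within the annotated span of the gene, before 1 of its 2 listed starts. Over the 35 listed genes, 41 of 52 promoter windows held ACGTG or GCGTG (78.8%), against 6804 of the 12311 windows of the other tested genes (55.3%) and 38.6% of all 32851 windows. CACGTG was in 11.5% of the members' windows and 6.02% of all, and its share in the windows of the other tested genes was not computed. The median GC content was 60.4% in the members' windows, 59.6% in those of the other tested genes and 52.4% in all. Windows of 1 gene can overlap, and a match is a description of letters, not a binding site.

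Glucose and lactate carriers had small differences. Slc2a1, the basal glucose transporter GLUT1, had normalized signals of 1054 and 1103 in positive cells, against 927 and 1044 in negative cells. Slc16a1, the proton-coupled lactate and pyruvate carrier MCT1, had 5221 and 5079 in positive cells, against 5016 and 4351 in negative cells. In both genes the positive arrays lay above the negative arrays, by less than the larger gap between replicates. The log2 fold change was 0.13 ± 0.19 (SE, 95% interval -0.29 to 0.55) for Slc2a1 and 0.14 ± 0.15 (-0.18 to 0.46) for Slc16a1. Slc16a3, the lactate exporter MCT4 of strongly glycolytic cells, was below the filter level of 19.4 on average, with signals of 21.0 and 5.40 in positive cells and 9.85 and 16.5 in negative cells.

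The preparatory steps trap glucose in the cell and split it into triose phosphates. Hexokinases Hk1 and Hk2, which make glucose phosphate, had log2 fold changes of 0.23 ± 0.23 and 0.20 ± 0.21 (SE). Hk2, the inducible form, had signals of 684 and 721 in positive cells, against 690 and 541 in negative cells. Its groups overlapped, as did those of Hk1. Leaving out 1 array gave from 0.015 to 0.44 for Hk1 and from 0.026 to 0.37 for Hk2.

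Phosphofructokinase commits sugar to glycolysis and has liver (Pfkl), muscle (Pfkm) and platelet (Pfkp) forms, which assemble into tetramers. Pfkl had signals of 2162 and 3700 in positive cells, against 1869 and 2078 in negative cells. The groups did not overlap, but positive replicate 1 was 1.04 times the higher negative array, and positive replicate 2 carried most of the difference. The log2 fold change was 0.52 ± 0.23 (SE, 95% interval 0.021 to 1.02), with an unadjusted p of 0.0425 and an adjusted p of 0.985 by limma; it ranked 442nd of the table by p. It was 0.13 without positive replicate 2 and 0.90 without positive replicate 1, where the limma adjusted p was 0.166, and from 0.44 to 0.59 without either negative array. The second Pfkl probe set had the same pattern, with 1403 and 2379 in positive against 1304 and 1398 in negative arrays, and the third, with signals under 100, overlapped. The gene lies at chr10:77986947-78009807 in GRCm38.p6.

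Pfkp and Pfkm had log2 fold changes of -0.038 ± 0.22 and -0.054 ± 0.24 (SE), with overlapping groups. The other 2 probe sets of Pfkp gave 0.30 and 0.40, each without overlap of the groups, so its probe sets did not share a direction. Isoforms of the enzyme therefore gave values from -0.054 to 0.52, and a test of the difference between them was not made.

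The aldolases and triose phosphate isomerase cut and interconvert the sugars that phosphofructokinase makes. Aldoa, the ubiquitous aldolase, had signals of 6541 and 7406 in positive cells and 5918 and 7488 in negative cells. Its 5 probe sets gave log2 differences from 0.064 to 0.15. Aldoc, the aldolase best known from brain, had 124 and 160 in positive cells and 89.7 and 146 in negative cells, with a log2 fold change of 0.26 ± 0.28 (SE). The 3 probe sets of Tpi1, the isomerase, gave 0.11 to 0.15. In all 3 genes the groups overlapped on the tested probe set.

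The payoff steps make ATP and pyruvate. Pgk1, the first ATP-forming kinase of the pathway, had signals of 8742 and 9568 in positive cells, against 8939 and 8965 in negative cells, and a log2 fold change of 0.031 ± 0.12 (SE, 95% interval -0.24 to 0.30). Pgam1, the phosphoglycerate mutase, had 5117 and 6249 in positive cells, against 5268 and 4831 in negative cells. Pkm, the pyruvate kinase, had 7612 and 9378 in positive cells, against 8059 and 7323 in negative cells. In all 3 genes positive replicate 2 was the highest array while positive replicate 1 lay among the negative arrays or below them. The log2 fold change of Pkm was 0.14 ± 0.14 (SE, 95% interval -0.17 to 0.45), or between 0.89 and 1.36 on the fold scale. Which splice forms of Pkm its 1 probe set covers was not analysed here.

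Gapdh, the dehydrogenase that yields NADH, was read from its 3 control probe sets. The one with the highest mean had normalized signals of 15094 and 15762 in positive cells and 15560 and 14142 in negative cells. The 3 differences on the log2 scale were 0.056, 0.0019 and 0.048, and the groups overlapped in all 3. Eno2, the neuronal enolase, lay below the filter with 14.3 and 0.80 in positive and 20.3 and 22.5 in negative arrays, too dim for a fold.

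Of the 11 tested genes of the preparatory and payoff steps, 9 lay above 0, with a median of 0.14. Scaling the arrays to one trimmed mean, or centring them on their medians, left that count at 9, with medians of 0.21 and 0.10. The count and the median depended on each array. They were 11 and 0.23 without positive replicate 1, 6 and 0.015 without positive replicate 2, 7 and 0.029 without negative replicate 1, and 10 and 0.069 without negative replicate 2. The genes are measured on the same 4 arrays, so their signs are not independent of each other.

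Lactate dehydrogenase subunits assemble into tetramers, with Ldha favouring lactate formation and Ldhb its use. Ldha had signals of 10872 and 11961 in positive cells, against 11057 and 9877 in negative cells. Its groups overlapped, and the log2 fold change was 0.13 ± 0.12 (SE, 95% interval -0.14 to 0.40). Ldhb had 104 and 109 in positive cells, against 165 and 76.4 in negative cells. Here the negative replicates differed more from each other than the groups did, and the log2 fold change was -0.075 ± 0.32 (SE). The other 3 Ldhb probe sets gave -0.32, 0.046 and -1.12; in the last, the positive arrays had signals of 19.1 and 1.95, at or below the filter level of 19.4, and the negative arrays 41.4 and 36.0, so that its size is inexact.

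The pyruvate dehydrogenase subunits, which start the mitochondrial use of pyruvate, had log2 fold changes of -0.077 ± 0.18 (Pdha1) and -0.20 ± 0.18 (Pdhb, SE). Pdhb had signals of 2332 and 1953 in positive cells, against 2645 and 2280 in negative cells, and its positive replicate 1 lay between the negative arrays. The kinases Pdk1 and Pdk3, which phosphorylate and inhibit the complex, had values of opposite sign. Pdk3 had 1119 and 1228 in positive cells, against 1024 and 1014 in negative cells, so that the groups did not overlap. Its log2 fold change was 0.20 ± 0.19 (SE, 95% interval -0.21 to 0.61, unadjusted p 0.313 by limma), and it was from 0.13 to 0.26 without any 1 array.

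Pdk1, a HIF-1 target, had 159 and 176 in positive cells, against 157 and 259 in negative cells, and a log2 fold change of -0.25 ± 0.27 (SE), the lowest of the members. That value rests on negative replicate 2: without it the log2 fold change was 0.083. The 2 further Pdk1 probe sets that passed the filter had differences of 0.26 and 0.056. Pdk2 was below the filter, with 17.4 and 12.1 in positive and 0.83 and 24.0 in negative arrays.

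The Pfkfb enzymes make and break down the sugar bisphosphate that activates phosphofructokinase. Pfkfb2, Pfkfb3 and Pfkfb4 had log2 fold changes of -0.057, -0.15 and -0.17, each with a standard error of 0.29 to 0.35 and overlapping groups. Pfkfb3, the form with the most kinase relative to phosphatase activity, had 46.7 and 30.2 in positive cells, against 46.5 and 41.4 in negative cells. Its second probe set gave 0.46. Signals of 30.2 to 121 on the tested probe sets leave these 3 genes with wide intervals, which reached -0.91 for Pfkfb3.

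The oxidative arm of the pentose phosphate pathway was read from Pgls, the lactonase, and Pgd, the second NADPH-forming dehydrogenase. Pgls had signals of 1859 and 1896 in positive cells, against 1886 and 2537 in negative cells. Negative replicate 2 alone stood higher, and the log2 fold change of -0.22 ± 0.19 (SE) was -0.0063 without it. Pgd had 2397 and 1971 in positive cells, against 2401 and 1950 in negative cells, a log2 fold change of 0.0064 ± 0.19 (SE, 95% interval -0.40 to 0.41). Another of its 4 probe sets did separate the groups, with 1768 and 2082 in positive against 1336 and 1479 in negative arrays and a log2 difference of 0.44 (unadjusted p 0.0374 by limma with each probe set tested on its own). Its difference of 0.44 lay outside the 95% interval of the tested probe set. The remaining Pgd probe sets gave 0.097 and -0.22. They and the tested probe set are _x_at probe sets, which are less specific, and the one that separated the groups is not.

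In the non-oxidative arm the transketolase Tkt and the transaldolase Taldo1 move carbon units between sugar phosphates, and Rpia and Rpe interconvert pentose phosphates. Tkt had 9685 and 6810 in positive cells, against 9877 and 9001 in negative cells. On this less specific _x_at probe set positive replicate 2 was the low array. The log2 fold change of -0.21 ± 0.16 (SE, 95% interval -0.57 to 0.14) was 0.039 without it. The other 2 Tkt probe sets, not _x_at sets, gave -0.12 and -0.083. The first had 2620 and 3014 in positive against 2926 and 3174 in negative arrays, with positive replicate 1 the lowest. The second, a dim one, had 48.1 and 23.7 against 43.5 and 32.0, with positive replicate 2 the lowest. Taldo1 had 1351 and 1196 in positive cells, against 1467 and 1378 in negative cells, with no overlap and a log2 fold change of -0.16 ± 0.19 (SE, unadjusted p 0.407 by limma). Rpia and Rpe had 0.21 ± 0.22 and -0.10 ± 0.23 (SE), with overlapping groups.

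Of the 6 pentose phosphate enzymes tested, 4 lay below 0, with a median of -0.13. Scaling to one trimmed mean left 4 below 0, with a median of -0.10, and centring on array medians gave 5, with a median of -0.21. The count and the median were 5 and -0.23 without positive replicate 1, 3 and 0.013 without positive replicate 2, 3 and -0.038 without negative replicate 1, and 5 and -0.17 without negative replicate 2.

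**Figure D4:**
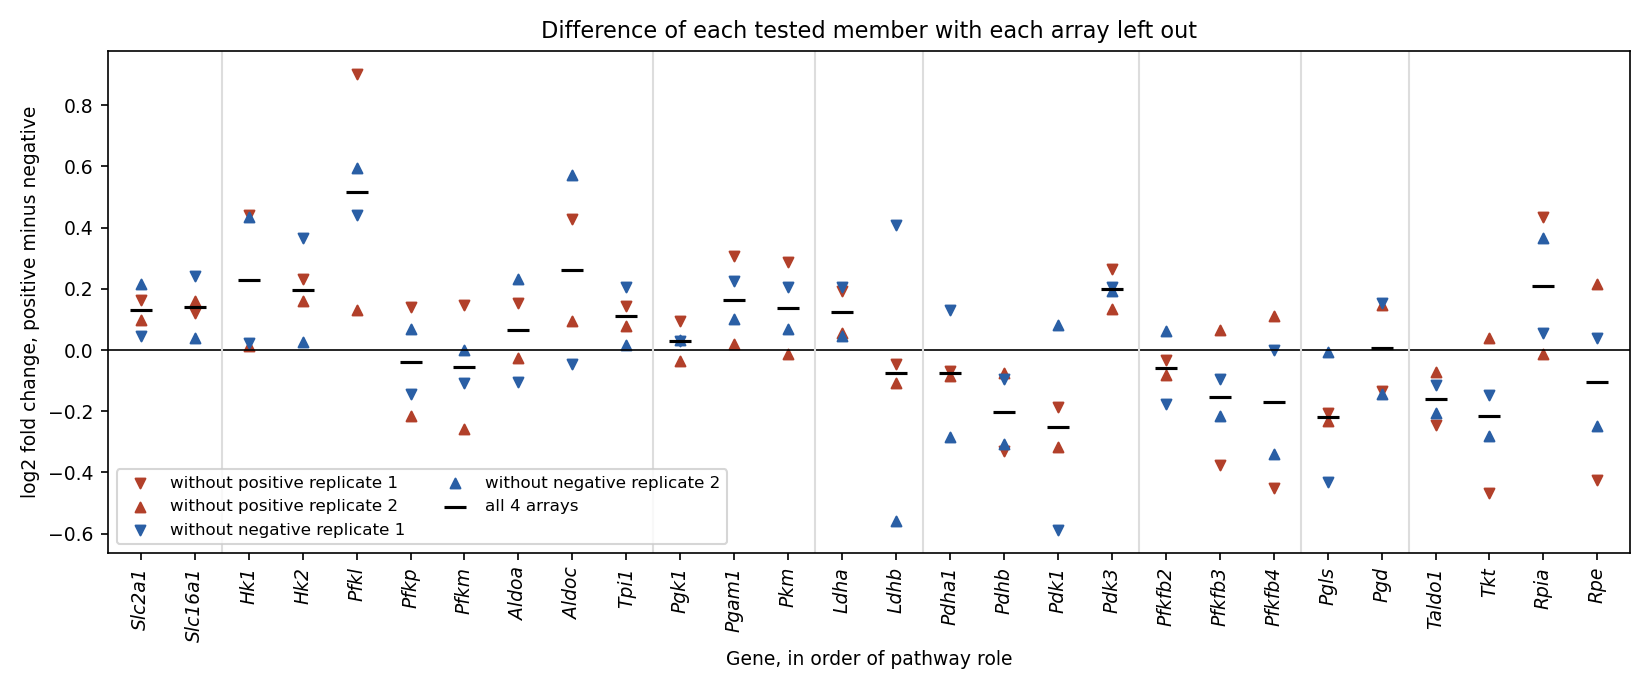
Log2 fold change of positive minus negative cells for each tested member with all 4 arrays (bar) and with each array left out in turn (triangles). Without positive replicate 2 (red triangles pointing up) the value of Pfkl was 0.13 and that of Tkt 0.039, each on its tested probe set. In Tkt the brighter of the other probe sets had positive replicate 1 as its lowest array.

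Probe sets of the same gene showed how far these differences can be read. Of the members tested, 16 had several probe sets that passed the filter, 48 in all. In 8 genes all probe sets gave the same sign, higher in 5 (Slc2a1, Hk1, Pfkl, Aldoa and Tpi1) and lower in 3 (Pdha1, Tkt and Rpe). In the other 8 the signs were mixed. The range between the lowest and highest difference of a gene had a median of 0.29 over these 16 genes. The median size of the members' own differences, 0.15, is not a like measure, since it takes 1 difference per gene. In Pgk1 the other 2 probe sets went opposite ways, at 0.25 and -0.64. Positive replicate 2 had 11363 on one, the highest of the 4 arrays, and 2655 on the other, the lowest. Both are less specific _x_at probe sets, and the tested one is not.

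**Figure D5:**
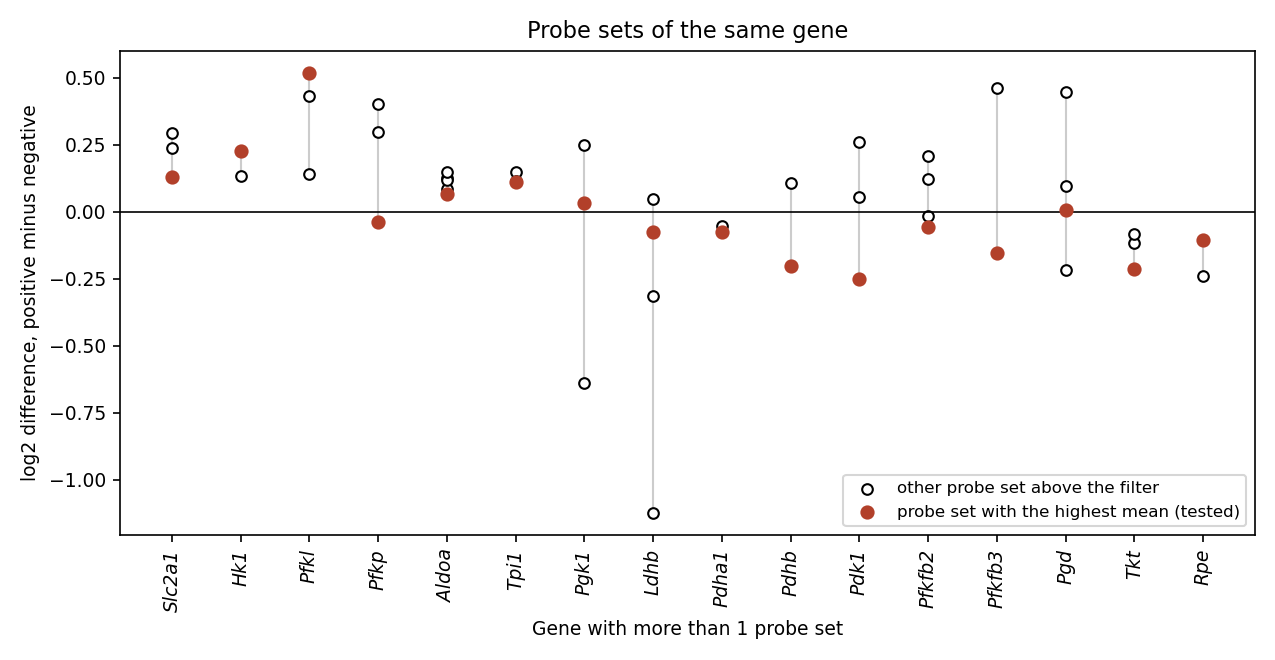
Log2 difference of positive minus negative cells for each probe set above the filter, in the 16 members with more than 1. Red points are the probe sets tested and open points the others; 8 genes had points on both sides of 0.

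No gene listed around the pathway was called either. Of 45 further genes of glucose and pyruvate metabolism listed, 25 were tested, 16 above and 9 below 0. Among all genes 54.3% lay above 0. Groups did not overlap in 44% of the 25, beside 32.3% of all genes. By limma 0 were called, beside 0.0753% of all genes, and 1 had an unadjusted p under 0.05, beside 4.45%. This was Slc2a4, the insulin-responsive glucose transporter GLUT4, with 81.3 and 79.5 in positive cells against 41.8 and 40.6 in negative cells (log2 fold change 0.75 ± 0.30, SE, limma adjusted p 0.985). Slc16a8, the lactate carrier MCT3 of retinal pigment epithelium, had 16.2 and 5.25 in positive cells, against 56.5 and 16.7 in negative cells. Only negative replicate 1 was above the filter level of 19.4, so its log2 fold change of -0.90 ± 0.49 (SE) is inexact in size and rests on that array.

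Of 13 listed enzymes of other routes that form NADPH or NADP, 12 were tested, 5 above and 7 below 0. Groups did not overlap in 25% of the 12, beside 32.3% of all genes. By limma 0 were called, beside 0.0753% of all genes, and 1 had an unadjusted p under 0.05, beside 4.45%. This was Idh1, the cytosolic isocitrate dehydrogenase, with 2216 and 1873 in positive cells against 2660 and 2766 in negative cells (log2 fold change -0.41 ± 0.17, SE, unadjusted p 0.0338, adjusted p 0.985 by limma). Both positive arrays lay below both negative arrays. Nadk, the cytosolic NAD kinase, had 0.17 ± 0.19 (SE).

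Of 16 splicing regulators of Pkm and transcription factors of glycolysis genes, 12 were tested, 4 above and 8 below 0. Groups did not overlap in 58.3% of the 12, beside 32.3% of all genes. By limma 0 were called, beside 0.0753% of all genes, and 0 had an unadjusted p under 0.05, beside 4.45%. Hif1a, the oxygen-regulated subunit of HIF-1, had 3389 and 3133 in positive cells against 4009 and 3988 in negative cells (log2 fold change -0.29 ± 0.15, SE, limma adjusted p 0.985). Its partner Arnt had -0.47 ± 0.28 (SE), with positive replicate 2 at 187 and the other 3 arrays between 353 and 366. HIF-1 is regulated mainly through the stability of the Hif1a protein, which arrays do not measure.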

How the data were processed

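The deposited table held 1 intensity value per probe set and array, 45101 probe sets on 4 arrays, on a linear scale from 0.1 to 22695.6. GCOS, Affymetrix's array software, is named in the submitters' processing notes with no step attached; how the deposited intensities were background corrected, summarised or scaled is not given in the sources consulted. The arrays' 2% trimmed means differed by more than a preset 5%, so values were quantile normalized and transformed as log2(value + 16), which understates differences of dim genes. After 64 controls were removed, probe sets with a mean below the 40th percentile (log2 5.15, signal 19.4) were left out, which left 27022. Names came from the platform annotation of 2016; 34945 probe sets had 1 symbol, 932 several and 9160 none, and 34741 were matched by gene number to RefSeq, which changed 0 symbols. The probe set with the highest mean stood for each of 11956 genes.

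Positive cells were compared with negative cells with limma 3.58.1 (R 4.3.3), using lmFit and trended eBayes, two-sided p-values and Benjamini-Hochberg adjustment across all genes; the fit had 12.2 degrees of freedom. Each probe set of a member was also fitted on its own. The fit was also run on simulated data drawn from its own variance model, with planted changes larger than that of any member. Such data do not show how it handles an array that stands apart or differences as small as the members'. The tested probe set of a gene was kept when arrays, scaling or pseudocount were changed. Members, lists and tests were chosen with earlier results of these data known. All listed members were named, and from each further list the 2 tested genes with the lowest p. Protein sequences were not used here.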

Additional observations from a re-analysis of the deposited data

How the results depend on the processing

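No member was called under any of the 14 alternatives (count 0; lowest limma adjusted p 0.166, Pfkl without positive replicate 1). The median log2 fold change of the members, 0.019 as reported, was 0.12 with the probe sets of each gene averaged, -0.039 with arrays centred on their medians, and from 0.018 without positive replicate 2 to 0.13 without positive replicate 1. Of 28 members, 12 kept their sign in all alternatives run. With arrays centred on their medians 20 genes of the table were called higher and 5 lower, 2 members had separated groups (25.4% of all genes did), 0 members had an unadjusted p under 0.05 and Pgd was -0.10. With no filter 3 genes were called higher, and without the intensity trend 2; in both, 0 members had an unadjusted p under 0.05. With the probe sets of each gene averaged, 9 members were separated (33.5% of all genes were), 0 had an unadjusted p under 0.05, and Pfkp was 0.22, Pgk1 -0.12, Pdk1 0.021, Pfkfb2 0.064 and Pfkfb3 0.15. With _x_at and _s_at probe sets, which are less specific, left out, 2 members had an unadjusted p under 0.05, Pfkl and Pgd, and Aldoa had no probe set. The filter at the 60th percentile left out Pfkfb2 and Pfkfb3.

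Leaving out 1 array at a time gave 6 to 20 genes called higher and 0 to 3 lower, 11 to 21 of the 28 members separated, beside 59.7% to 73.8% of all genes, as fewer arrays overlap less, and 0 to 2 members with an unadjusted p under 0.05. Log2 fold changes that changed sign then ran from -0.22 to 0.14 for Pfkp, -0.26 to 0.15 for Pfkm, -0.11 to 0.23 for Aldoa, -0.047 to 0.57 for Aldoc, -0.034 to 0.10 for Pgk1 and -0.013 to 0.29 for Pkm. They ran from -0.56 to 0.41 for Ldhb, -0.28 to 0.13 for Pdha1, -0.59 to 0.083 for Pdk1, -0.18 to 0.063 for Pfkfb2, -0.38 to 0.066 for Pfkfb3 and -0.45 to 0.11 for Pfkfb4. For the pentose phosphate enzymes they ran from -0.14 to 0.16 for Pgd, -0.47 to 0.039 for Tkt, -0.013 to 0.43 for Rpia and -0.42 to 0.22 for Rpe. Members that kept their sign ran from 0.045 to 0.21 for Slc2a1, 0.038 to 0.24 for Slc16a1, 0.016 to 0.21 for Tpi1, 0.020 to 0.31 for Pgam1, 0.045 to 0.21 for Ldha, -0.33 to -0.074 for Pdhb, -0.43 to -0.0063 for Pgls and -0.25 to -0.073 for Taldo1. The cause was not tested.

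With the replicate number as a block, 15 genes were called higher and 3 lower, and no member was called. The deviations of same-numbered arrays had a correlation of 0.12 over genes, and the labels give the numbers no shared culture or day. The counts for glycolytic steps and pentose phosphate enzymes were chosen after seeing the data. Dim members, near the filter level of 19.4, have inexact folds.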
